A study of Mus musculus with 12 samples.

Results

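Messenger RNA of 10 genes that make, process or receive vasoactive signals of the vessel wall was described in endothelial cells sorted from mesentery and epididymal fat of mice. The genes were Nos3 for nitric oxide; Edn1, Ece1, Ednra and Ednrb for endothelin; Ace for angiotensin; Ptgs1, Ptgs2 and Ptgis for prostanoids; and Npr3 for natriuretic peptides. They were taken by symbol from a bulk RNA-seq table of 27825 genes, and all 10 were found there. The mice were male, carried the genotype ROSA26-eYFP+/+ Cdh5-CreERT2+, and received tamoxifen food from 6 weeks of age for 2 weeks, so that cells which had expressed Cdh5-driven Cre, and their descendants, were marked by yellow fluorescent protein (YFP). Feeding then began at 8 weeks of age and lasted 12 to 13 weeks, with normal chow (5.8% fat) for some mice and a high fat diet, or HFD (60% fat), for the others. Tissue of 6 mice was combined per sample, digested with the transcription blocker actinomycin D present, and sorted by flow cytometry. This gave 4 groups of 3 libraries, named A, B and C: chow mesentery, HFD mesentery, chow epididymal fat and HFD epididymal fat. Every group carried the same Cre and reporter and had received tamoxifen, so no group without them was compared. The labels mention 2 independent replicates while the titles give 3 letters, so the p-values measure only the spread between these libraries, which may be partly technical, and n below counts libraries.

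Endothelial cells set the tone and stickiness of the vessel through short-lived mediators. Nitric oxide made by endothelial nitric oxide synthase (Nos3) diffuses to the smooth muscle and relaxes it through cyclic GMP. Endothelin-1 (Edn1) is a peptide constrictor that is cut from its precursor by endothelin-converting enzyme (Ece1), acts on smooth muscle through the A receptor (Ednra), and is cleared by the B receptor on endothelium (Ednrb), which also stimulates nitric oxide release. Cyclooxygenases (Ptgs1 and Ptgs2) turn arachidonic acid into prostaglandin H2, from which prostacyclin synthase (Ptgis) makes prostacyclin, a dilator that keeps platelets quiet. Angiotensin-converting enzyme (Ace) makes angiotensin II and breaks down bradykinin, and Npr3 is the clearance receptor for natriuretic peptides.

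The cyclooxygenases Ptgs1 and Ptgs2 differed between the tissues in opposite directions, and their promoters are shown for that reason. Each sequence is the stretch of 250 bases before the start of the gene in RefSeq on the plus strand of build GRCm38.p6, given 5′ to 3′: chr2:36230176-36230425 for Ptgs1 and chr1:150099781-150100030 for Ptgs2. Capitals mark letters that match a searched motif.
Ptgs1: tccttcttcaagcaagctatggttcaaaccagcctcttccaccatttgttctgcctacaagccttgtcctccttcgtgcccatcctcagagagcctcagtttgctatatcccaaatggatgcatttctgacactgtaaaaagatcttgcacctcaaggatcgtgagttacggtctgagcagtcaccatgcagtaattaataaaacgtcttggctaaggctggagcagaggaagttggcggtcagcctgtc
Ptgs2: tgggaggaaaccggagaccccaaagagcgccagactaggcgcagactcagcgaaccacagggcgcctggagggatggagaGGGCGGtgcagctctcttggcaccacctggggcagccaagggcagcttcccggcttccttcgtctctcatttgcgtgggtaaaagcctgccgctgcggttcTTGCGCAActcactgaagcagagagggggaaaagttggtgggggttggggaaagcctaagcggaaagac
Both strands were searched for the TATA box TATAAA, the E-box CACGTG, the GC box core GGGCGG, the cyclic AMP element TGACGTCA, the AP-1 element TGANTCA, the GATA element AGATAA, the Klf element CCACACCC and the C/EBP-type element TTGCGCAA, the last of which was added after the Ptgs2 sequence had been read. The Ptgs1 stretch, with a GC content of 48.0%, held none of them, which says only that these letters are not in this window. The Ptgs2 stretch, with a GC content of 61.6%, held GGGCGG 170 bases before the start and TTGCGCAA 69 bases before the start. Of 27025 promoters of the same length, 32.9% held GGGCGG and 0.170% held TTGCGCAA. The share was 13.0% for the TATA box, 6.05% for the E-box, 1.62% for the cyclic AMP element, 6.87% for the AP-1 element, 10.3% for the GATA element and 3.19% for the Klf element. These matches do not overlap and are descriptions of letters, not of bound factors. Of the 10 genes, 8 were matched in the promoter table.

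The deposited values are normalized counts (reads per gene divided by a factor for each library), and read totals per library ran from 8348897 to 25397963. A floor of 3 reads equals 2.12 to 4.22 normalized counts. The series title speaks of arteries, and 8 arterial endothelial markers summed to 7458 to 11570 in mesentery and 5099 to 9442 in epididymal fat. Markers of other vessels were present as well. The 8 capillary markers summed to 327380 to 486406 in mesentery and 472290 to 808162 in epididymal fat. Of these 8, 3 were called higher and 2 lower in epididymal fat averaged over diets, with a median log2 change of -0.25. Fabp4 averaged 134874 in mesentery and 398719 in epididymal fat, while Plvap averaged 160034 and 9922. The 6 venous markers summed to 3530 to 5953 and 4931 to 7407, with 4 called higher and 1 lower in epididymal fat. Sums over different genes do not give shares of cells. None of the 10 pan-endothelial markers was at 0 in any group, and Cdh5, whose promoter drives the Cre, lay between 2172 and 4822 in the 12 libraries. Markers of other cells were present too and differed by tissue. The summed level of 12 smooth muscle and pericyte markers was 1761 to 4856 in mesentery and 7814 to 28699 in epididymal fat, and that of 8 fibroblast markers was 4642 to 10114 and 18859 to 62836. The 9 macrophage and leukocyte markers summed to 1421 to 22535 in mesentery and to 5096 to 298545 in epididymal fat. The 7 lymphatic endothelial markers summed to 1332 to 13032 in mesentery and 11831 to 37637 in epididymal fat, with 6 of 7 called higher there. The 4 red blood cell markers in the table, which belong to cells the lysis step was meant to remove, summed to 177 to 411 in mesentery and 31944 to 44020 in epididymal fat, and all 4 were called higher there (median log2 change 6.81). The 7 pancreatic acinar markers summed to 39926 to 264904 in mesentery and to at most 96.7 in epididymal fat. Chow mesentery library C stood apart from its group in the summed lymphatic endothelial markers, at 13032 against 1332 and 1522 in libraries A and B. Most of that sum of 13032 came from the marker Ccl21a alone. HFD mesentery library C stood apart in 7 T and B cell markers, with 6101 against 161 and 166. Chow epididymal library B stood apart in the macrophage and leukocyte markers, with 77858 against 8202 and 5096.

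Of all 22238 genes tested, 4848 were called between the tissues averaged over diets and 122 between the diets averaged over tissues. The 10 genes likewise differed between the tissues far more than between the diets. Averaged over both diets, 3 of them were lower in epididymal fat than in mesentery (Ptgs1, Ece1 and Ace) and 4 were higher (Ptgs2, Ptgis, Ednra and Npr3), by limma with Benjamini-Hochberg adjustment over 22238 genes and an adjusted p under 0.05. Nos3, Edn1 and Ednrb did not pass that test. The share of all genes called in this comparison was 21.8%, with 12.8% higher and 9.05% lower in epididymal fat. On chow 6 of the 10 genes were called, beside 12.8% of all genes (7.32% higher and 5.47% lower), and on HFD 4 were called, beside 8.34% (4.91% higher and 3.43% lower). These shares include many genes at low levels. Among the 13076 genes with a mean of at least 50, larger shares were called: 4786 genes averaged over diets, 3062 on chow and 2161 on HFD. The members' median log2 change averaged over diets was -0.17, and that of all genes -0.01. When every library was rescaled to the same total, the median of all genes for the tissue change on HFD moved from 0.06 to -0.12, and the share of its calls that were higher in epididymal fat moved from 58.9% to 35.3%. On chow that share moved from 57.2% to 67.3%, while the counts of members called were again 7 averaged over diets, 6 on chow and 4 on HFD. Across 6 libraries against 6, the values of Ptgs1, Ece1 and Ptgis did not overlap between the tissues, which held for 10.5% of all genes tested.

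**Figure D1:**
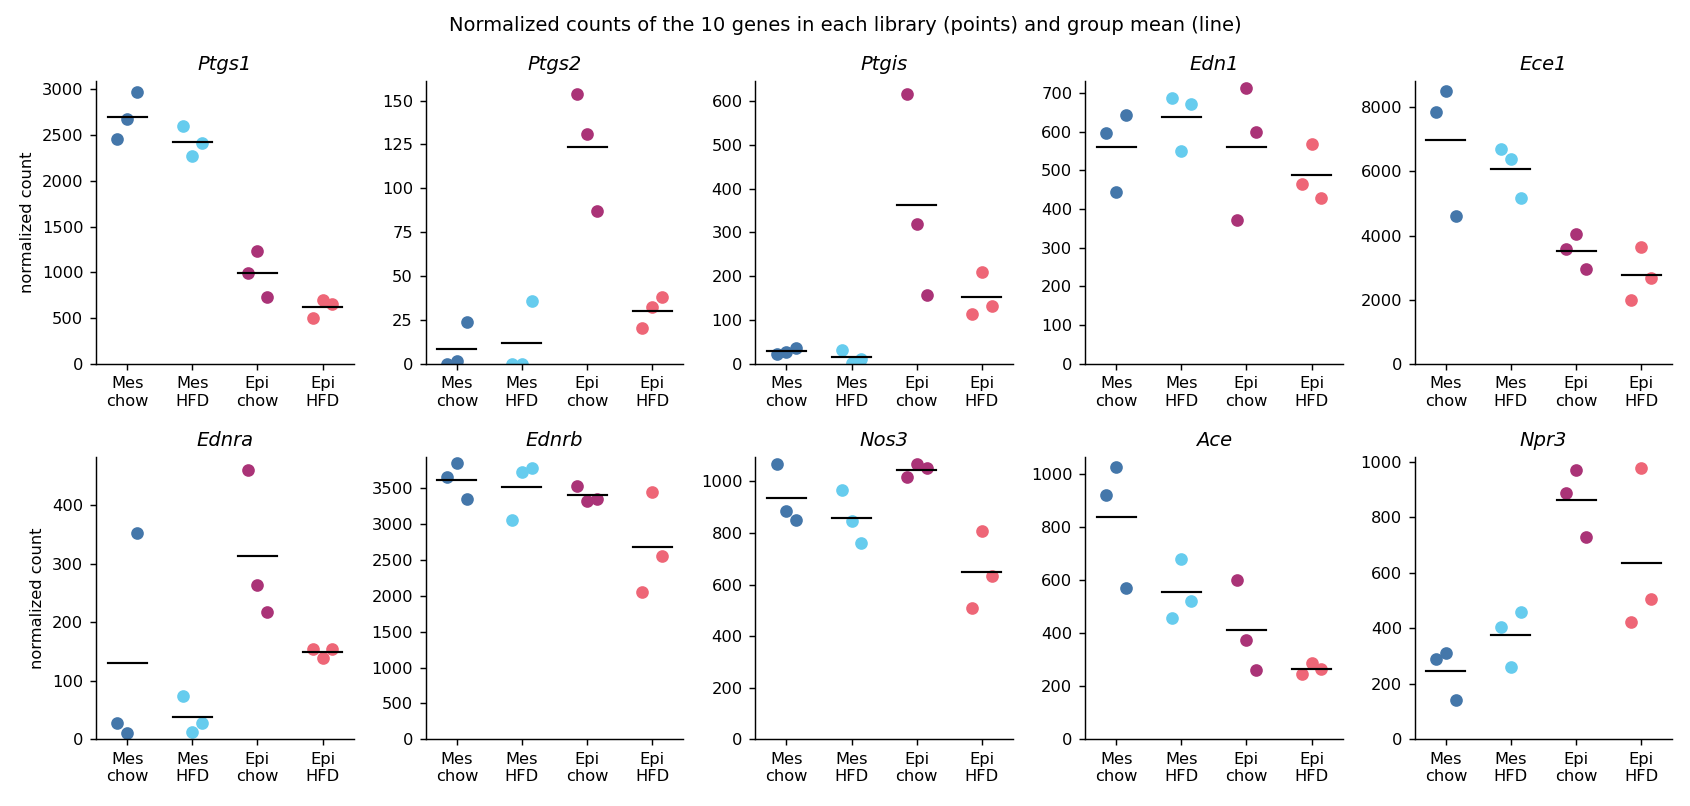
Normalized count (vertical axis, linear, from 0) of each of the 10 genes in each of the 12 libraries (points), by group, with the mean of 3 libraries as a line (Mes, mesentery; Epi, epididymal fat; HFD, high fat diet). Ptgs1 sits at 2273 or above in all 6 mesentery libraries and at 1234 or below in all 6 epididymal libraries, whereas Ptgis does not pass 35.2 in mesentery.

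Ptgs1 (ENSMUSG00000047250, chromosome 2), the constitutive cyclooxygenase, was at 2461, 2675 and 2968 normalized counts in the chow mesentery libraries and at 2595, 2273 and 2409.9 in the HFD mesentery libraries. The epididymal libraries were at 994, 1234 and 733 on chow and at 499, 699 and 649.7 on HFD. All 6 mesentery libraries were above all 6 epididymal ones, and in epididymal fat the 3 chow libraries were above the 3 HFD libraries. The level was 3.33-fold lower in epididymal fat averaged over diets (log2 change -1.73, SE 0.14, limma adjusted p = 2.97e-06). It was 2.79-fold lower on chow and 3.97-fold lower on HFD (adjusted p = 0.000401 and 5.33e-05), and all 21 alternatives in processing kept each of these calls. Fewer cells of a type and less RNA per cell cannot be told apart in such libraries. The summed pan-endothelial markers were also lower in epididymal fat, at 34317 to 82455 against 118241 to 192045, with a median log2 change of -1.10 and 7 of 10 markers called lower. Their part in the result was not tested.

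Ptgs2 (ENSMUSG00000032487, chromosome 1), the inducible cyclooxygenase, was close to absent from most mesentery libraries. It had 0, 2 and 17 reads in the chow mesentery libraries and 0, 0 and 36 reads in the high fat ones, or 0, 1.79 and 23.9 and then 0, 0 and 35.6 normalized counts. In epididymal fat it was at 154, 131 and 86.8 normalized counts on chow and at 20.2, 32.2 and 38.2 on HFD. The chow epididymal libraries were above every other library, and the HFD epididymal libraries overlapped with HFD mesentery library C. The level was higher in epididymal fat averaged over diets (log2 change 4.04, SE 1.01, adjusted p = 0.0110) and on chow (4.88, SE 1.42, adjusted p = 0.0387), but the change on HFD, 3.19 with SE 1.42, did not pass (adjusted p = 0.218). A log2 change of 4.04 is 16.4-fold, while the means of 6 libraries, 77.0 and 10.2 normalized counts, differed 7.54-fold. With a pseudocount of 5 the averaged change was 2.72. On the recovered reads edgeR and DESeq2 gave 2.67 and 2.61 without a call (adjusted p = 0.143 and 0.0750). Of 8 immediate early genes, listed for a response to tissue digestion, 4 were called higher in epididymal fat averaged over diets and 0 lower. Their median log2 change was 0.98, that of the fibroblast markers 3.17 and that of the macrophage and leukocyte markers 3.35. Their part in the level of Ptgs2 was not tested.

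Single libraries moved the Ptgs2 values. Without chow mesentery library C, the library with a high level of the lymphatic marker Ccl21a, the change on chow was 6.18 and the averaged change 4.69. Without HFD mesentery library C the averaged change was 4.90, and the change on HFD reached 4.92 and passed (adjusted p = 0.0310). The call on chow was lost without chow mesentery library A or B, without any of the 3 chow epididymal libraries, and without HFD epididymal library B or C (adjusted p between 0.0573 and 0.151). It was also lost with edgeR and DESeq2 (adjusted p = 0.197 and 0.0793), which makes 9 of the 20 alternatives that tested Ptgs2.

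Within a library, the ratio of Ptgs2 to Ptgs1 on the log2 scale, with 1 added to each value, was between -11.34 and -6.04 in mesentery. In chow epididymal fat it was between -3.22 and -2.69, and in HFD epididymal fat between -4.56 and -4.05. All epididymal libraries were therefore above all mesentery libraries in this ratio. Per kilobase of exon, which allows levels of different genes to be compared, Ptgs2 was still the lower isoenzyme everywhere: 27.0 ± 7.41 against 254 ± 64.4 normalized counts per kilobase (SD, n = 3) in chow epididymal fat, and 1.87 ± 2.91 against 695 ± 65.6 in chow mesentery.

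Ptgis (ENSMUSG00000017969, chromosome 2), the synthase of prostacyclin, was at 22.8, 27.8 and 35.2 normalized counts in chow mesentery and at 30.9, 1.39 and 11.9 in HFD mesentery. In chow epididymal fat it was at 616, 319 and 157, and in HFD epididymal fat at 115, 211 and 131. The lowest epididymal library was above the highest mesentery library. Ptgis was 12.7-fold higher in epididymal fat averaged over diets (log2 change 3.66, SE 0.56, adjusted p = 0.000427), 10.8-fold on chow (adjusted p = 0.0117) and 14.9-fold on HFD (adjusted p = 0.00839). The averaged call and the call on HFD held in all 21 alternatives, and the call on chow was lost only without chow epididymal library A, with a change of 2.95 (adjusted p = 0.0743). The smooth muscle and fibroblast marker lists moved the same way, with all 12 and all 8 markers called higher in epididymal fat and median log2 changes of 2.66 and 3.17. Their part in the result was not tested.

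**Figure D2:**
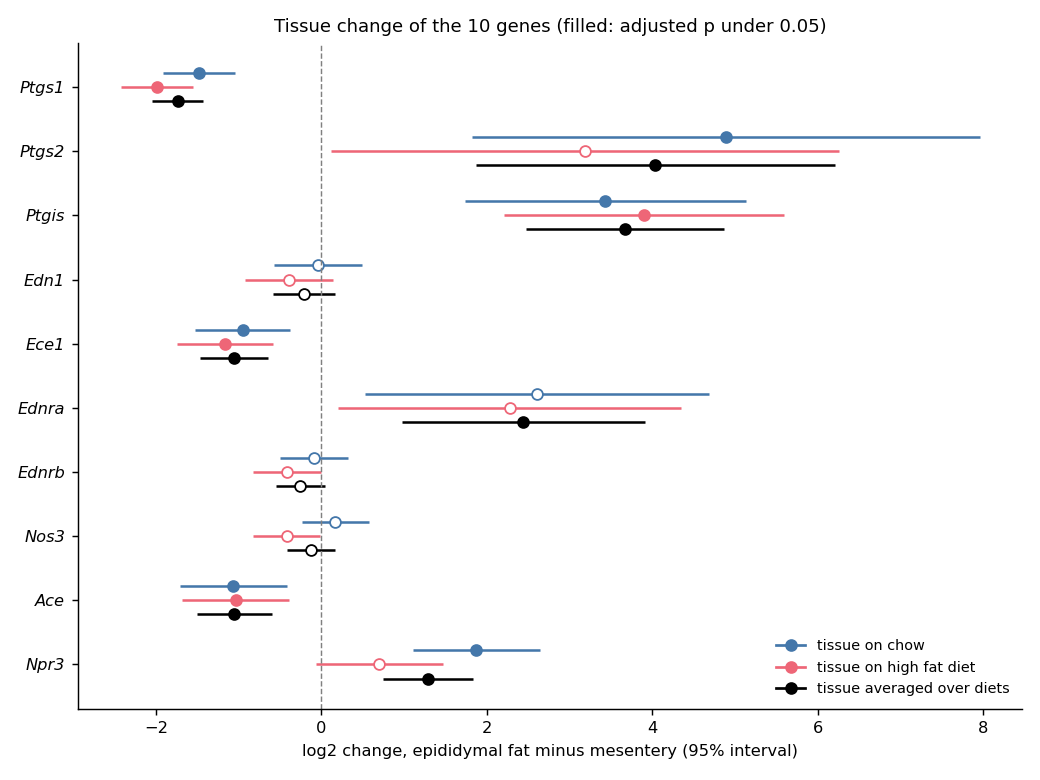
Log2 change between the tissues (horizontal axis, epididymal fat minus mesentery) with its 95% interval for each of the 10 genes, on chow, on HFD and averaged over both; filled points passed an adjusted p of 0.05. Ptgs1, Ece1 and Ace lie below 0 in each comparison and Ptgs2, Ptgis, Ednra and Npr3 above 0, with the widest intervals for Ptgs2, whose mesentery libraries hold 0 to 36 reads.

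In the endothelin system the converting enzyme and the A receptor differed between the tissues in opposite directions, while neither the ligand nor the B receptor passed the test. Edn1 (ENSMUSG00000021367, chromosome 13), the ligand, was at 598, 444 and 643 normalized counts in chow mesentery and at 688, 550.2 and 673 in HFD mesentery. The epididymal libraries were at 371, 714 and 598 on chow and at 465, 567 and 428 on HFD. The libraries of all 4 groups overlapped, and no neighbouring pair in the order of group means differed by more than its larger SD. The tissue change averaged over diets was -0.21 with a 95% interval from -0.59 to 0.16 (adjusted p = 0.447). Changes within that interval remained compatible with these libraries.

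Ece1 (ENSMUSG00000057530, chromosome 4), which releases the active peptide, had the highest level per kilobase of the 10 genes in chow mesentery, at 1319 ± 395 normalized counts per kilobase (SD, n = 3). Its normalized counts were 7869, 8498 and 4599.7 in chow mesentery and 6689, 6392 and 5179 in HFD mesentery. In epididymal fat they were 3568, 4034 and 2959 on chow and 2002, 3656 and 2685 on HFD. All mesentery libraries were above all epididymal ones, the nearest being chow mesentery library C. Ece1 was 2.08-fold lower in epididymal fat averaged over diets (log2 change -1.06, SE 0.19, adjusted p = 0.00137), and this call held in all 21 alternatives. On chow and on HFD the changes were -0.95 and -1.16 (adjusted p = 0.0327 and 0.0173). These calls were lost with edgeR (adjusted p = 0.102 and 0.0914). On chow the call was also lost without mesentery library A or B or any chow epididymal library. On HFD it was also lost without mesentery library A or B or epididymal library A or C. The median log2 change of the pan-endothelial markers averaged over diets was -1.10. Their part in the level of Ece1 was not tested.

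Ednra (ENSMUSG00000031616, chromosome 8), the A receptor best known from smooth muscle, was at 27.3 and 10.8 normalized counts in chow mesentery libraries A and B but at 352 in library C. In HFD mesentery it was at 73.9, 12.5 and 28.7. In epididymal fat it was at 461, 263 and 218 on chow and at 155, 139 and 155 on HFD. Chow mesentery library C thus reached the level of epididymal fat, and the other 5 mesentery libraries were below every epididymal library. Ednra was higher in epididymal fat averaged over diets (log2 change 2.44, SE 0.68, adjusted p = 0.0199), and the changes on chow, 2.61, and on HFD, 2.28, did not pass (adjusted p = 0.1000 and 0.186).

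The size of the tissue change of Ednra depended on that library, which made it smaller. The means of 6 libraries, 231.7 and 84.2 normalized counts, differed 2.75-fold, against 5.44-fold from the mean log2 change. Without chow mesentery library C the change on chow was 4.03 and passed (adjusted p = 0.00103), as did the change on HFD, 2.28 (adjusted p = 0.0226), and the averaged change was 3.15. The averaged call was lost without chow mesentery library A, HFD mesentery library B or chow epididymal library A (adjusted p = 0.0534, 0.0557 and 0.0554), and with edgeR and DESeq2 (changes of 1.67 and 1.62, adjusted p = 0.125 and 0.0644). In chow mesentery library C the lymphatic marker Ccl21a was at 11665 against 322 and 497 in libraries A and B, and the venous marker Selp at 522 against 21.6 and 21.5. The 12 smooth muscle and pericyte markers summed to 1926 there against 2103 and 1761 in libraries A and B. The fibroblast markers summed to 10114.5 against 6666 and 8162, and the macrophage and leukocyte markers to 6941 against 1421 and 1564. The part of these cell types in the level of Ednra was not tested.

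Ednrb (ENSMUSG00000022122, chromosome 14), the B receptor of endothelium, was at 3654, 3846 and 3341 normalized counts in chow mesentery and at 3049.8, 3721 and 3779 in HFD mesentery. The epididymal libraries were at 3534, 3314 and 3342 on chow and at 2053, 3444 and 2547 on HFD. The groups overlapped, except that 2 of the 3 HFD epididymal libraries were below every other library. The tissue change averaged over diets was -0.25 with a 95% interval from -0.55 to 0.04 (adjusted p = 0.223). Within a library, the log2 ratio of Ednra to Ednrb was between -8.35 and -3.24 in chow mesentery and between -3.94 and -2.94 in chow epididymal fat.

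Nos3 (ENSMUSG00000028978, chromosome 5), the source of endothelial nitric oxide, was at similar levels in the tissues on chow. It was at 1068, 886 and 849 normalized counts in chow mesentery and at 1016, 1066 and 1052 in chow epididymal fat. On the high fat diet it was at 965, 845 and 763 in mesentery and at 510.4, 808 and 633 in epididymal fat. The 3 chow epididymal libraries were close together, and all 3 HFD epididymal libraries were below them. The tissue change averaged over diets was -0.12 with a 95% interval from -0.41 to 0.16 (adjusted p = 0.581). Of the exons of Nos3, 25.2% by length are shared with an antisense gene, Gm15587, whose own level did not pass 25.1 normalized counts in any library, and whether the counting used strand is not given in the sources used here.

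Ace (ENSMUSG00000020681, chromosome 11), which makes angiotensin II and degrades bradykinin, was at 922, 1027 and 572 normalized counts in chow mesentery and at 459, 681 and 524 in HFD mesentery. In epididymal fat it was at 601, 376 and 261 on chow and at 247, 289 and 264 on HFD. The HFD epididymal libraries were below all mesentery libraries, while chow epididymal library A lay within the mesentery range. Ace was 2.07-fold lower in epididymal fat averaged over diets (log2 change -1.05, SE 0.21, adjusted p = 0.00303), and this call held in all 21 alternatives. On chow and on HFD the changes were -1.06 and -1.04 (adjusted p = 0.0322 and 0.0488). The call on chow was lost with edgeR and without mesentery library A or B or epididymal library B or C of that diet. That on HFD was lost in 11 of the 21 alternatives, among them edgeR and each fit without 1 of the 6 HFD libraries. The pan-endothelial markers were lower too, with a median log2 change of -1.10 averaged over diets. Their part in the level of Ace was not tested.

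Npr3 (ENSMUSG00000022206, chromosome 15), the clearance receptor that removes natriuretic peptides, was at 288, 313 and 141 normalized counts in chow mesentery and at 406, 262 and 458 in HFD mesentery. The epididymal libraries were at 887, 970.4 and 728 on chow and at 423, 977 and 507 on HFD. On chow the tissues were well separated, and on HFD they overlapped. Npr3 was 2.44-fold higher in epididymal fat averaged over diets (log2 change 1.29, SE 0.25, adjusted p = 0.00251) and 3.66-fold higher on chow (1.87, SE 0.36, adjusted p = 0.00379). On the high fat diet the change was 0.70 with a 95% interval from -0.07 to 1.47 (adjusted p = 0.294). The summed adipocyte markers, which were at 56256 to 76954 in chow epididymal fat, were at 3873 to 12859 in HFD epididymal fat and 4163 to 9185 in mesentery. Most of the chow epididymal sum was Cfd, which averaged 50379 on chow and 1161 on HFD in epididymal fat. Adipoq averaged 6544 and 1186 there, while Lep averaged 1002 and 1009. The part of these markers in the level of Npr3 was not tested.

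Ranked by mean level per kilobase of exon, the order in chow mesentery was Ece1, Ednrb, Ptgs1, Edn1, Nos3, Ace, Npr3, Ednra, Ptgis and Ptgs2. In chow epididymal fat it was Ednrb, Ece1, Edn1, Ptgs1, Nos3, Ptgis, Npr3, Ace, Ednra and Ptgs2. In chow mesentery the neighbours Edn1 and Nos3, Npr3 and Ednra, and Ednra and Ptgis did not differ by more than the larger SD. The place of Ednra above Ptgis came from library C, where it was at 64.3 normalized counts per kilobase against 13.7 for Ptgis. In libraries A and B it was at 4.99 and 1.96, below Ptgis at 8.87 and 10.8. In chow epididymal fat Ptgis and Npr3, Npr3 and Ace, and Ace and Ednra were within the larger SD. Edn1, Ptgs1 and Nos3 were together there, at 262 ± 81.6, 254 ± 64.4 and 253 ± 6.27 normalized counts per kilobase, and did not differ beyond their SDs. Ptgis stood at 142 ± 90.6 there and at 11.1 ± 2.44 in chow mesentery.

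The second question of the design was what the high fat diet changed. None of the 10 genes passed the test for a diet change in either tissue, nor averaged over the tissues, by limma at an adjusted p under 0.05. Such calls were made for 0.0135% of all genes in mesentery, 0.549% in epididymal fat and 0.549% averaged over the tissues. At an unadjusted p under 0.05 there were 0 of 10 in mesentery, 2 in epididymal fat (Nos3 and Ptgs1) and 4 averaged over the tissues (Nos3, Ptgs1, Ace and Ptgis). The shares of all genes at that unadjusted threshold were 6.15%, 6.94% and 8.31%. In each of these 3 comparisons edgeR called 0 members, and DESeq2 called 2 in epididymal fat and 0 in the others. Of all 22238 genes tested, edgeR called 1 in mesentery, 29 in epididymal fat and 28 averaged over the tissues. DESeq2 called 154, 546 and 585 in the same order.

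In epididymal fat the change of every one of the 10 genes was below 0 on HFD, beside 9370 of all 22238 genes tested. The median log2 change was -0.60 for the 10 genes against 0.10 for all genes. Rescaling to the same total moved that median of all genes to -0.04, and for mesentery from 0.00 to 0.13. For 4 genes the 3 HFD libraries were all below the 3 chow libraries (Nos3, Ednra, Ptgs1 and Ptgs2), a pattern found in that direction for 6.57% of all genes tested. The mean of Nos3 was 1045 ± 25.9 normalized counts with chow and 651 ± 149 with HFD (SD, n = 3), a log2 change of -0.71 with a 95% interval from -1.11 to -0.30 (limma adjusted p = 0.163; DESeq2 adjusted p = 0.0179). Ptgs1 averaged 987 ± 250.3 and 616 ± 104, a change of -0.66 with an interval from -1.10 to -0.23 (adjusted p = 0.247; DESeq2 adjusted p = 0.0327). Ptgs2 averaged 124 ± 34.0 and 30.2 ± 9.16, a change of -2.01 with a wide interval from -5.08 to 1.06 (adjusted p = 1.00). Ednra averaged 314 ± 129 and 149.6 ± 9.43, a change of -0.99 with an interval from -3.06 to 1.09 (adjusted p = 1.00). The signs of these 4 changes were the same in every alternative that tested them; Edn1 was above 0 in 1 of 21. DESeq2 gave no adjusted p for Ptgs2.

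The marker lists also moved with the diet in epididymal fat. The median log2 change was -0.63 for the 10 pan-endothelial markers, -0.62 for the lymphatic list, -0.995 for the smooth muscle and pericyte list and -1.46 for the adipocyte list, and it was 1.61 for the fibroblast list and 2.50 for the macrophage and leukocyte list. The smooth muscle and pericyte markers summed to 17906 to 28699 on chow and 7814 to 14784 on HFD, without overlap, in the same direction as Ednra. The lymphatic markers summed to 22667 to 37637 and 11831 to 18154, also without overlap. The macrophage and leukocyte markers summed to 5096 to 77858 on chow and 120558 to 298545 on HFD. Of all 15 marker lists, 2 adipocyte markers and 1 smooth muscle marker passed the diet test as lower and 2 fibroblast markers as higher, and no pan-endothelial or macrophage marker passed. The part of these cells in the members' values was not tested.

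**Figure D3:**
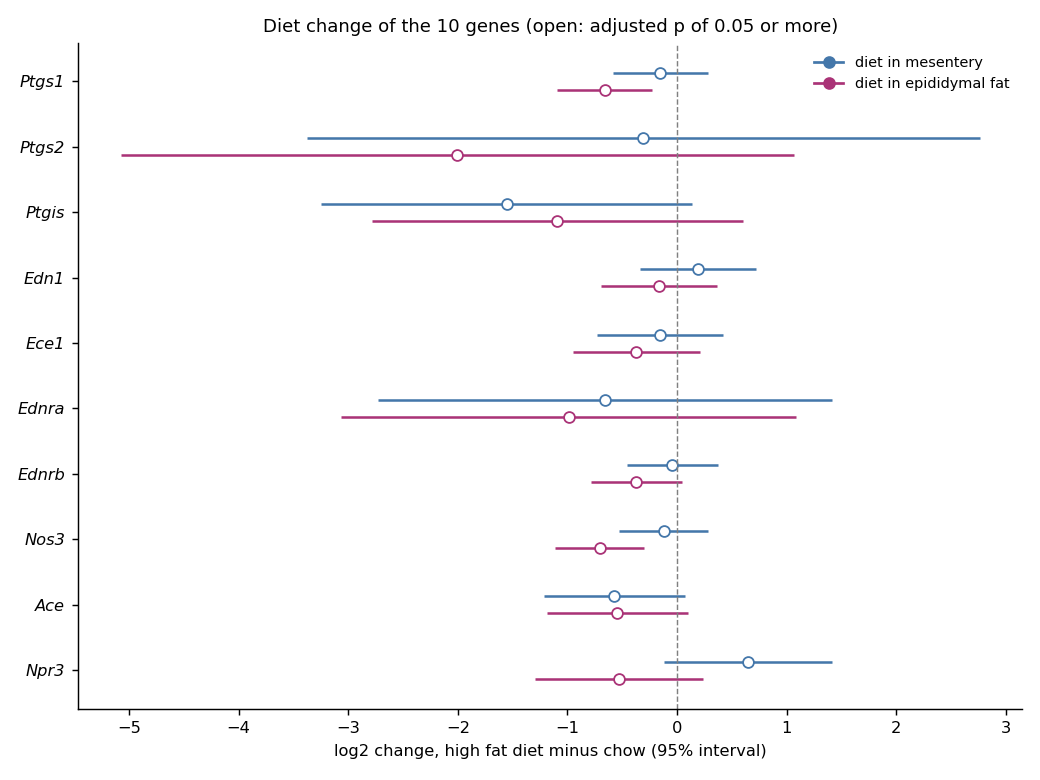
Log2 change between the diets (horizontal axis, high fat diet minus chow) with its 95% interval for each of the 10 genes in mesentery and in epididymal fat; open points did not pass an adjusted p of 0.05. In epididymal fat all 10 points lie below 0, with the intervals of Nos3 and Ptgs1 short of 0, while in mesentery every interval spans 0.

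In mesentery no gene of the 10 had groups that did not overlap, beside 9.61% of all genes in either direction. The median log2 change was -0.16 for the 10 genes and 0.00 for all genes. Npr3 was at 247 ± 93.0 on chow and 375 ± 102 on HFD, a change of 0.64 with an interval from -0.12 to 1.41. Ace was at 840.3 ± 238 and 554 ± 114, a change of -0.57 with an interval from -1.22 to 0.07 (adjusted p = 0.868).

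Whether the diet altered the gap between the tissues, the heterogeneity named in the title of the series, was addressed by the difference of the diet changes. No member passed that test (adjusted p = 0.9996 for each), and 0.0045% of all genes did. At an unadjusted p under 0.05 there were 2 of 10, beside 4.71% of all genes. No member was called by edgeR or DESeq2, which called 1 and 133 of all 22238 genes tested. Npr3 had a difference of -1.17 with a 95% interval from -2.26 to -0.09, its tissue change being 1.87 on chow and 0.70 on HFD. Nos3 had a difference of -0.58 with an interval from -1.16 to -0.01. For Ptgs1 the interval was -1.12 to 0.11, so that a larger or a smaller gap between the tissues on HFD could not be told apart.

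The wider pathways were described by 6 lists of 82 genes around the members, of which 69 were in the table and 64 were tested. Averaged over diets, 25 of the 64 were called higher in epididymal fat and 8 lower, with a median log2 change of 0.27, beside 12.8% and 9.05% of all genes. On chow 18 were higher and 6 lower, beside 7.32% and 5.47%, and on HFD 11 were higher and 7 lower, beside 4.91% and 3.43%. The counts of the single lists below, averaged over diets, stand against the same 12.8% and 9.05%, and lists of so few genes were not tested as sets. Among the 13076 genes with a mean of at least 50, the shares were larger, with 2672 called higher and 2114 lower averaged over diets.

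Among 17 tested genes of prostanoid synthesis and removal, 9 were higher in epididymal fat and 1 lower, with a median log2 change of 1.44. Ptges, the inducible prostaglandin E synthase that often works with Ptgs2, was at 52.4, 40.3 and 78.8 normalized counts in chow mesentery and at 991, 636 and 479 in chow epididymal fat. On the high fat diet it was at 15.9, 2.77 and 48.4 in mesentery and at 208, 334 and 348 in epididymal fat. All epididymal libraries were above all mesentery ones (log2 change averaged over diets 3.95, SE 0.49, adjusted p = 9.63e-05). Hpgd, which inactivates prostaglandins, was higher in the same direction by 3.14 (SE 0.27, adjusted p = 3.76e-06). The prostaglandin D synthases Hpgds and Ptgds were higher by 3.41 and 3.38 (adjusted p = 0.00436 and 0.0228). Hpgds averaged 86.9 in chow and 1314 in HFD epididymal fat, and Tbxas1, thromboxane synthase, 188 and 1198. Both are known from macrophages, and neither passed the diet test (adjusted p = 0.175 and 0.130). The summed macrophage and leukocyte markers given above were higher in every HFD epididymal library than in any chow one, and their part was not tested. On chow Pla2g2d, a secreted phospholipase, was higher in epididymal fat by 2.57 (adjusted p = 0.0192).

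Prostanoid receptors differed in both directions. Of 6 tested, 3 were higher in epididymal fat (Ptger2, Ptger4 and Ptgir) and Tbxa2r was lower. Tbxa2r, the receptor for thromboxane and prostaglandin H2, was at 806, 923 and 1008 normalized counts in chow mesentery and at 686, 942 and 724 in HFD mesentery. In epididymal fat it was at 231, 144 and 136 on chow and at 66.3, 115 and 105 on HFD. The tissues did not overlap (log2 change -2.75, SE 0.19, adjusted p = 5.46e-07). Ptger4, a receptor for prostaglandin E2, was higher by 2.50 (SE 0.41, adjusted p = 0.00083), and on HFD Ptgir, the prostacyclin receptor, was higher by 2.53, at 112 against 22.5 on average (adjusted p = 0.0438).

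Among 18 tested genes that supply or regulate nitric oxide synthases, 5 were higher and 3 lower in epididymal fat, with a median log2 change of 0.19. Nostrin, an adaptor that moves Nos3 away from the membrane, was at 4628, 5011 and 2848 normalized counts in chow mesentery and at 1600.2, 3385 and 2477 in HFD mesentery. It was at 387, 302 and 379.9 in chow epididymal fat and at 396, 374 and 433 in HFD epididymal fat. The change averaged over diets was -3.04 (SE 0.19, adjusted p = 2.27e-07), while Nos3 itself did not pass. Gch1, which starts the synthesis of the cofactor tetrahydrobiopterin, was lower in epididymal fat on either diet, with log2 changes of -1.12 on chow and -0.80 on HFD (adjusted p = 0.00501 and 0.0436). Cav1, the caveolae protein that holds Nos3 inactive, was higher by 1.43 averaged over diets (adjusted p = 0.00102), Asl, which makes arginine, by 1.22 (adjusted p = 0.0103) and the inducible synthase Nos2 by 2.37 (adjusted p = 0.000409).

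Of 11 tested genes of cyclic GMP signalling, 3 were higher and 2 lower in epididymal fat. The subunits of the nitric oxide receptor, Gucy1a1 and Gucy1b1, were higher on chow by 2.99 and 2.78 (adjusted p = 0.00248 and 0.00729), and Pde2a, which degrades cyclic GMP and cyclic AMP, was at 67.5 against 176 (log2 change -1.35, adjusted p = 0.0230). This guanylate cyclase is also known from smooth muscle and pericytes, whose 12 markers were all called higher in epididymal fat averaged over diets; their part was not tested. Npr2, a natriuretic peptide receptor, was lower averaged over diets (log2 change -0.51, adjusted p = 0.0304), in contrast to the clearance receptor Npr3.

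In the angiotensin and kinin list 4 of 10 tested genes were higher and 1 lower in epididymal fat averaged over diets. The lower one was Bdkrb2, the bradykinin B2 receptor, which triggers nitric oxide and prostacyclin release from endothelium. It was at 1062, 1079 and 512 normalized counts in chow mesentery and at 356, 791 and 528 in HFD mesentery, against 53.3, 26.9 and 32.7 in chow and 23.6, 22.3 and 13.4 in HFD epididymal fat. The change was -4.61 (SE 0.29, adjusted p = 2.38e-07), so both Bdkrb2 and Ace, which degrades its ligand, were lower in epididymal fat. Agt, the angiotensin precursor known from adipocytes and liver, was higher by 5.40 (adjusted p = 5.11e-05), Agtr1a, the angiotensin II receptor, by 3.17 (adjusted p = 0.000305) and the aminopeptidase Anpep by 1.86 (adjusted p = 0.0125). Lnpep, which cleaves further peptide hormones, was lower on chow (log2 change -0.70, adjusted p = 0.0393). Mme, a protease that degrades natriuretic peptides and endothelin, was 1 of 2 tested genes of the list of endothelin ligands and processing and was higher by 2.39 (adjusted p = 0.00551).

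For the diet, 1 of the 64 pathway genes was called, in epididymal fat, beside 0.549% of all genes there and 0.0135% in mesentery. Enpep, the aminopeptidase that turns angiotensin II into angiotensin III, was at 477, 488 and 433 normalized counts on chow and at 133, 183 and 190.4 on HFD. The HFD libraries did not overlap with the chow ones, and the log2 change was -1.48 (SE 0.21, adjusted p = 0.00837). In mesentery it was at 367, 247 and 290.03 on chow and at 354, 349 and 325 on HFD, where no pathway gene was called for the diet. On HFD Enpep was therefore lower in epididymal fat than in mesentery (log2 change -1.04, SE 0.21, adjusted p = 0.0100). With the diet in epididymal fat, the smooth muscle and pericyte markers had a median log2 change of -0.995. Their part in the level of Enpep was not tested.

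**Figure D4:**
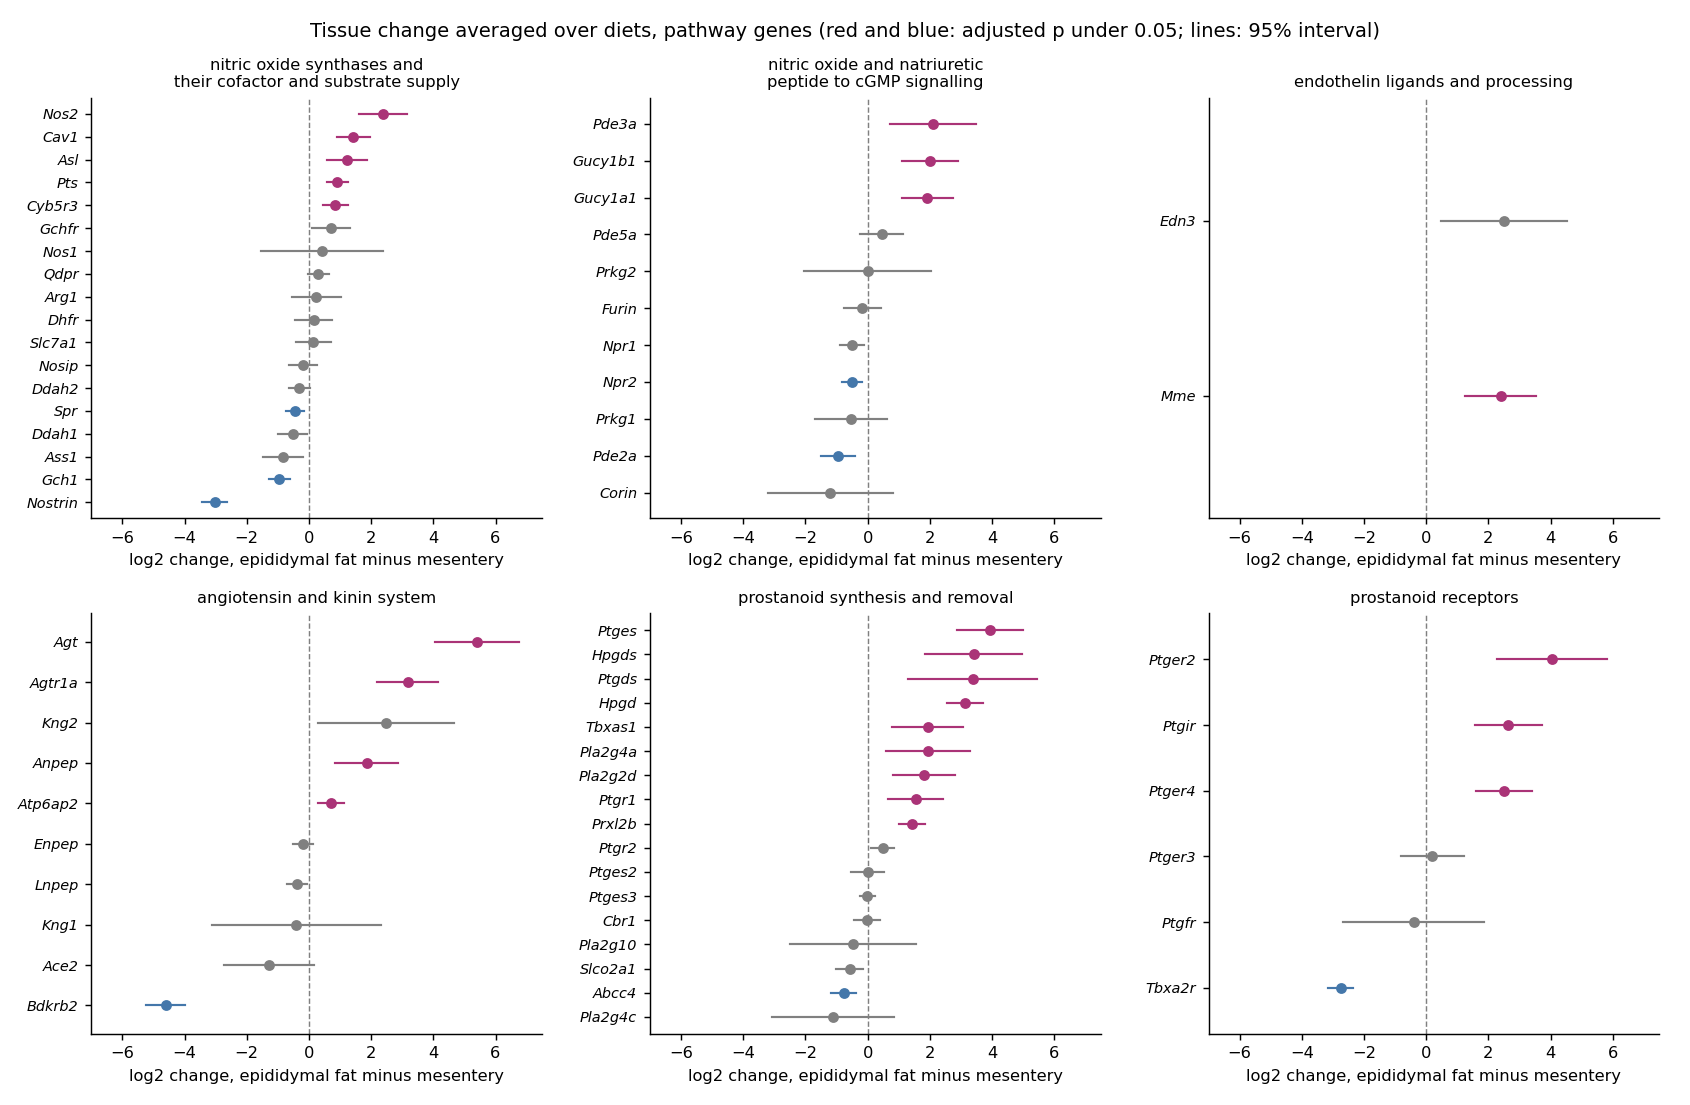
Log2 change between the tissues averaged over diets (horizontal axis, epididymal fat minus mesentery), with 95% intervals, of the 64 tested pathway genes in 6 lists; red points were called higher and blue points lower in epididymal fat, and grey points did not pass an adjusted p of 0.05. Bdkrb2, Nostrin and Tbxa2r lie farthest to the left, at -4.61, -3.04 and -2.75, and Agt farthest to the right, at 5.40.

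The genes whose pattern over the 12 libraries was most like that of a member were taken by Pearson correlation of log2 values among 9819 named genes (9820 for Ptgs2) with a mean of at least 100, as a description in which the tissue difference itself carries much of the correlation. For Ptgs1 they were Igfbp3, Terf1 and Tbxa2r, with r of 0.977, 0.975 and 0.975. Igfbp3, a secreted binder of insulin-like growth factors, averaged 36379 normalized counts in chow mesentery and 3671 in chow epididymal fat. For Ece1 they were Zfp366, Plcg1 and Brd9 (0.988, 0.986 and 0.985), and for Ace Rundc1, Cpsf1 and Traf7 (0.964, 0.959 and 0.956). For Ptgis they were Kcna5, Entpd2 and Mboat2 (0.963, 0.960 and 0.957), for Ptgs2 Spata6, Fads2 and Fmod (0.945, 0.939 and 0.938), and for Npr3 Ptpn11, Cystm1 and Arxes1 (0.971, 0.964 and 0.962). Ednra was most like Pla2g4a, the phospholipase that frees arachidonic acid, followed by Prg4 and Lrrc39 (0.944, 0.941 and 0.941). Nos3 was most like Ccdc85a, Thrsp and Hoxd8 (0.937, 0.934 and 0.930), and Ednrb most like Rbpms, Ica1 and Gimap6 (0.943, 0.941 and 0.928). Edn1 had no close match, the highest values being 0.767 for Cog5, 0.763 for Tmtc3 and 0.701 for Pcmtd1.

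The flow-responsive transcription factors Klf2 and Klf4, which are known to raise Nos3 and lower Edn1, were both lower in epididymal fat averaged over diets, with log2 changes of -0.83 and -0.94 (adjusted p = 0.00474 and 0.00420). The pan-endothelial markers had a median log2 change of -1.10 in that comparison. Klf2 was at 4888, 5963 and 3672 normalized counts in chow mesentery and at 3012, 2751 and 1673 in chow epididymal fat. Nos3 and Edn1 did not pass the tissue test on chow (changes of 0.17 and -0.04, limma adjusted p = 0.645 and 0.950). On the high fat diet Klf2 was at 4118, 2962 and 4309 in mesentery and at 2048, 2501 and 2538 in epididymal fat. The tissue changes of Nos3 and Edn1 on that diet were -0.42 and -0.39 (limma adjusted p = 0.224 and 0.431). A link between these factors and Nos3 or Edn1 was not tested.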

How the data were processed

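Bulk RNA-seq of sorted YFP-positive cells was analysed in 12 libraries, 4 groups of 3. The authors deposited normalized counts, a signal per gene and library; the submitters' processing notes name STAR 2.7.9a, featureCounts of Subread, DESeq2 1.34.0 and build mm39. All deposited values (100%) were multiples of a step of their library, so that whole reads were recovered (tolerance 1e-06 reads), and no gene had under 51 reads in all. The unit signal is not a count, so limma 3.58.1 (R 4.3.3; lmFit, eBayes with trend) was run on log2(normalized count + 1) for the 22238 genes with a mean of at least 10, with a mean per group and 7 contrasts, and p-values were adjusted by Benjamini-Hochberg over all of them; a call is an adjusted p under 0.05. Fold changes are differences of mean log values on that scale. The pseudocount shrinks those of low genes, yet where single libraries of a group lie near 0 or far above the rest they can exceed the ratio of group means, as for Ptgs2 and Ednra. All 10 members passed the filter on low values.

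The members and all lists were chosen with earlier results of these data known. Each pathway list gives counts called and by name up to 4 called genes per contrast with the largest change, if the higher group's mean was 100 or more; Ptger2, Hpgds and Tbxas1 for the diet, the marker genes and the second motif of Ptgs2 were named after their values were seen. For each member the 3 genes with the highest Pearson correlation were taken. Exon lengths and overlaps come from GENCODE M21 on GRCm38, another build than that of the reads, so no gene coordinates are given; promoters are from RefSeq. There were 21 alternatives: 12 fits without 1 library, a pseudocount of 5, no filter, a filter at 50, rescaled totals, a replicate block, the number range of the labels (50 to 53 against 87 and 88) as a covariate, libraries 50 to 53 only, edgeR 4.0.16 and DESeq2 1.42.0 on the recovered reads. The fits were tested on simulated data. Plots were drawn with matplotlib 3.10.9.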

Additional observations from a re-analysis of the deposited data

How the results depend on the processing

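Averaged over diets, 7 members differed between the tissues, and the alternatives gave 5 to 7. The count was 6 with the filter at 50, which leaves Ptgs2 out of the test. It was 5 with edgeR, 5 with DESeq2, and 6 to 7 when 1 library was left out. Over all 22238 genes tested, edgeR called 3837 and DESeq2 5772. On chow the count of 6 became 3 with edgeR, 5 with DESeq2 and 3 to 7 without 1 library. There edgeR called 1984 and DESeq2 3927 of all genes tested. On HFD the count of 4 became 2 with edgeR, which called 1021 of all genes tested. Without 1 library it became 2 to 5, and the fits without 1 library rest on fewer samples. For the diet in epididymal fat DESeq2 called 2 members against 0, beside 546 against 122 of all genes tested. With a replicate block (letter for the diet, number of the label for tissue and interaction) the counts were again 7 averaged over diets, 6 on chow, 4 on HFD and 0 for each diet comparison and the interaction; the labels do not say what the shared numbers mean, and the deviations of same-numbered libraries correlated between -0.149 and 0.583 across the tissues and those of same-lettered libraries between -0.675 and 0.436 across the diets, so neither was taken as pairs. No called member changed sign in any alternative; single member values lost a call in 44 cases, gained one in 7 and kept their side of the threshold in 1412, and the cause was not tested. Over all genes, counts moved by more than 1.5 times: from 2843 to between 1516 and 4349 for the tissue on chow, from 1854 to between 728 and 2931 on HFD, from 122 to between 23 and 546 for the diet in epididymal fat, from 122 to between 18 and 585 averaged over tissues, from 3 to between 1 and 154 in mesentery and from 1 to between 1 and 133 for the interaction. Averaged over diets the tissue count of 4848 lay between 3684 and 7223. The share of diet calls in epididymal fat that were higher was 76.2%, and 63.8% after rescaling to the same total. Read totals limit the low genes: Ptgs2 and Ptgis had as few as 0 and 1 reads in mesentery libraries.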
